A study of Homo sapiens with 19 samples.

Results

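The transcripts described here are those of 8 genes of the TALE homeobox class, MEIS1, MEIS2, MEIS3, PBX2, PBX3, PBX4, PKNOX1 and PKNOX2, out of the 33382 genes with a value in each RNA-seq sample. The 8 were taken by gene symbol, and each symbol matched a single gene. The study deleted core components of polycomb repressive complex 2 (PRC2) in H1 human embryonic stem cells (hESCs), an established line, by CRISPR/Cas9 with homologous recombination, which replaced a functional domain of each target with a drug-resistance cassette. The 6 constitutive lines gave 2 samples each: WT H1, the single knockouts EED-/-, SUZ12-/-, EZH1-/- and EZH2-/-, and the double knockout EZH2-/-/EZH1-/-. The knockout samples carry clone or passage names in their labels. The other 7 samples came from H1-EED-/-/EED-OE cells, in which the endogenous EED is deleted and EED is supplied by a doxycycline (DOX)-inducible lentiviral vector, with 1 sample collected in its presence and 1 on each of days 8, 12, 16, 20, 24 and 28 without it. The sample with DOX has no day in its treatment label but carries day 28 in its title, so it is used here as a reference with DOX and not as a starting point of the withdrawal. The EED-/-, SUZ12-/- and EZH2-/-/EZH1-/- lines are called PRC2-null below, after their labels.

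TALE proteins carry a homeodomain with an additional loop of residues and act as partners of HOX proteins. PBX proteins bind DNA together with HOX proteins of the anterior and central paralog groups, and MEIS and PKNOX proteins bind PBX through a shared amino-terminal region, which also keeps PBX in the nucleus. MEIS proteins can pair with HOX proteins of the posterior groups without PBX. In embryos MEIS1 and MEIS2 mark the trunk, the proximal limb and the blood and heart lineages, whereas PBX2, PBX3 and PKNOX1 are expressed widely. HOX and MEIS loci are textbook targets of polycomb repression, in which PRC2 methylates histone H3 at lysine 27 through EZH1 or EZH2, with EED and SUZ12 as obligate subunits.

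PRC2 is recruited in mammals mainly to CpG-rich promoters, so the stretch before the annotated start is shown for MEIS1 and MEIS2, which had the largest differences between lines, and for PBX2, the member with the highest level in WT cells. The 200 bases before a start are printed 5′ to 3′ on the strand of the gene, from RefSeq promoters on GRCh38.p14, with each CpG in capitals. MEIS1 lies at chr2:66434925-66435124 on the plus strand, MEIS2 at chr15:37098697-37098896 on the minus strand before the second of its 2 listed starts, and PBX2 at chr6:32190203-32190402 on the minus strand. The MEIS1 and MEIS2 stretches lie within the GENCODE 44 bounds of those genes, so they precede starts inside the gene.
MEIS1: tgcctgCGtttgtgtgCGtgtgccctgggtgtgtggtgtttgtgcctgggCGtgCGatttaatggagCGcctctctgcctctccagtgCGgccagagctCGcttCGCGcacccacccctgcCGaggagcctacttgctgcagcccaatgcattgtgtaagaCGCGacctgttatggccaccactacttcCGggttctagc
MEIS2: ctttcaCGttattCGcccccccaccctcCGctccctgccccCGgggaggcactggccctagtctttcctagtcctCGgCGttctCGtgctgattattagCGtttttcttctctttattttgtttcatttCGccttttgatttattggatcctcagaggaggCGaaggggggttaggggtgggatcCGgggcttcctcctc
PBX2: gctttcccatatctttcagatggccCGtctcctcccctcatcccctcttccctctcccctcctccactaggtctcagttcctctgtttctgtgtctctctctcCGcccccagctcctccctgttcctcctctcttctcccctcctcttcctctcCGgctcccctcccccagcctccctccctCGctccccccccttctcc
The MEIS1 stretch held 13 CpGs, the MEIS2 stretch 11 and the PBX2 stretch 4. In the full window of 300 bases (250 before and 50 after the start), MEIS1 had 18 CpGs, a number that 44.5% of the 35116 promoters of this length reached, and PBX2 had 8, which 60.7% reached. The window of the MEIS2 start shown had 16, which 47.5% reached, and that of the other MEIS2 start had 35, which 14.1% reached. CpG number did not follow the levels in WT cells across the genes: PKNOX1, expressed in all samples, had 46 CpGs, which 2.9% of promoters reached, and MEIS3 had 14 and 13. The MEIS and PKNOX core motif TGACAG, searched on both strands, was found in the PBX3 window and in none of the other 8 member windows, against 15.8% of all promoters. The HOX-PBX motif TGATNNAT was found in the second MEIS2 window and in no other, against 7.4% of all promoters. The 7 genes with an entry had 9 windows, and PKNOX2 had no entry.

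Expression is given as TPM, reads divided by transcript length and scaled to a fixed total per sample. Levels can thus be compared between genes within a sample. TPM sum to the same total in every sample, so read depth is unknown. A TPM of at least 1 was found for 14389 to 17043 genes per sample. The targeted genes could not check the lines, because only a domain was deleted and whole-gene TPM was retained: EED was 14.25 and 22.36 TPM in the EED-/- samples against 17.30 and 21.96 in WT, and SUZ12 was 22.94 and 20.76 in SUZ12-/- against 25.21 and 27.89. EZH1 was 12.49 and 17.07 TPM in EZH1-/- against 13.71 and 14.29 in WT, and EZH2 was 46.94 and 22.02 in EZH2-/- against 54.55 and 58.89. In EZH2-/-/EZH1-/- cells EZH1 was 9.37 and 6.78 TPM and EZH2 31.28 and 20.03. In H1-EED-/-/EED-OE cells EED was 108.54 TPM with DOX and 12.64 to 31.56 without it. The markers of the labelled cell type were present in the WT, EZH1-/- and EZH2-/- samples, where the summed TPM of 7 pluripotency genes, POU5F1 and NANOG among them, was 5393 to 6675, and low in the PRC2-null samples, at 157 to 463. The summed markers of 3 other cell types were higher in every PRC2-null sample. The summed TPM of 6 smooth muscle and mesenchyme genes was 218 to 633 in the first group and 7417 to 14833 in the PRC2-null samples, that of 6 endoderm genes 4.72 to 14.8 and 879 to 16901, and that of 4 trophoblast genes 11.9 to 14.8 and 104 to 427. The sums overlapped between the groups for 5 blood and endothelial genes, at 32.5 to 135 and 78.9 to 496. They also overlapped for 6 neural genes, at 149 to 354 and 63.6 to 474. Of the blood and endothelial genes, KDR overlapped, at 31.57 to 132.98 TPM outside the PRC2-null group and 14.69 to 135.19 within it. TAL1, RUNX1, PECAM1 and CDH5 did not overlap, with at most 1.12 TPM outside the group and at least 4.20 within it. HAND1, a mesenchyme marker, was listed at 0 in all 6 samples outside the PRC2-null group. CNN1, a smooth muscle marker of the same list, overlapped between the groups, at 16.45 to 32.79 TPM outside and 21.44 to 109.92 within. In SUZ12-/- it was 23.98 and 21.44 TPM, below the 28.15 and 32.79 of WT. Of the neural markers, PAX6 was 0.24 to 0.70 TPM outside the PRC2-null group and 5.66 to 128.76 within it, whereas SOX1 reached at most 0.32 TPM in any of the 12. The pluripotency, mesenchyme, endoderm and trophoblast sums and the genes PAX6, TAL1, RUNX1, PECAM1 and CDH5 thus separated the same 2 groups of samples. These are the 2 groups of the results on the PRC2-null lines below, and the part of these markers in those results was not tested. In bulk samples, a change in the number of cells of a type and a change in RNA per cell cannot be told apart.

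MEIS1 (chromosome 2, 66433452 to 66573869, plus strand, protein-coding, GENCODE 44 on GRCh38), the cofactor of posterior and central HOX proteins in blood progenitors, was near 0 in every line outside the PRC2-null group. It was 0.53 and 0.07 TPM in WT, 0.84 and 0.43 in EZH1-/- and 0.09 and 0.53 in EZH2-/- cells. In the PRC2-null lines it was 13.71 and 15.30 TPM in EED-/-, 24.82 and 22.31 in SUZ12-/- and 21.86 and 17.01 in EZH2-/-/EZH1-/- cells. The 2 groups of 6 did not overlap, and the 3 PRC2-null lines did not overlap one another either, with SUZ12-/- highest and EED-/- lowest. On the log2(TPM + 1) scale the difference from WT was 3.60 (SE 0.30, adjusted p = 4.95e-06) in EED-/-, 4.26 (SE 0.30, adjusted p = 1.87e-06) in SUZ12-/- and 3.99 (SE 0.30, adjusted p = 3.96e-06) in EZH2-/-/EZH1-/- cells. Since the WT level is near 0, these folds depend on the added constant, and with 0.1 in place of 1 they were 5.48, 6.17 and 5.89.

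MEIS2 (chromosome 15, 36889204 to 37101299, minus strand, protein-coding), which has roles in heart, palate and forebrain development, followed the same split at a slightly higher level. It was 0.43 and 0.04 TPM in WT, 0.26 and 0.28 in EZH1-/- and 0.00 and 0.42 in EZH2-/- cells. In EED-/- it was 29.81 and 30.45 TPM, in SUZ12-/- 30.79 and 30.92, and in EZH2-/-/EZH1-/- 37.48 and 20.18. The 6 PRC2-null samples were all above the other 6, and the means of the 3 null lines lay within 28.8 to 30.9 TPM, with the widest spread in the double knockout (SD 12.2, n = 2). The difference from WT was 4.67 (SE 0.33, adjusted p = 1.69e-06), 4.71 (SE 0.33, adjusted p = 1.80e-06) and 4.55 (SE 0.33, adjusted p = 3.06e-06) in the same order on the log2(TPM + 1) scale. With a constant of 0.1 the differences were 6.79, 6.83 and 6.66. MEIS1 and MEIS2 had at least 1 TPM in 0 of the 6 samples outside the PRC2-null group and in 6 of 6 within it, so they passed the filter on low values through the group in which they were high. The libraries do not mark strand, so reads from MEIS1 or MEIS2 and from an overlapping antisense transcript cannot be told apart. MEIS1-AS2 and MEIS1-AS3 reached at most 0.84 and 0.42 TPM in any sample, and the antisense transcript within MEIS2 at most 0.91.

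MEIS3 (chromosome 19, 47403124 to 47419527, minus strand, protein-coding), a MEIS gene linked to hindbrain patterning, was expressed in all samples and differed between lines by less. It was 23.96 and 23.45 TPM in WT, 26.37 and 34.36 in EZH2-/- and 50.45 and 51.74 in EZH1-/- cells. It was 60.50 and 63.98 TPM in SUZ12-/-, 88.95 and 69.29 in EED-/- and 99.98 and 59.64 in EZH2-/-/EZH1-/- cells. The order of the lines by mean was WT, EZH2-/-, EZH1-/-, SUZ12-/-, EED-/- and EZH2-/-/EZH1-/-, with neighbours apart at each step except the last. The difference from WT was 1.69 (SE 0.25, adjusted p = 0.000254) in EED-/- and 1.66 (SE 0.25, adjusted p = 0.000373) in EZH2-/-/EZH1-/- cells, both past 3-fold. In SUZ12-/- it was 1.36 (SE 0.25, adjusted p = 0.00117), under 3-fold. In EZH1-/- cells MEIS3 was 1.08 above WT (SE 0.25) with an adjusted p of 0.0746, and in EZH2-/- 0.33 (SE 0.25, adjusted p = 0.98). The EED-/- call fell below 3-fold with samples rescaled by the median ratio of genes (1.42) and without the first EED-/- sample (1.51), and the EZH2-/-/EZH1-/- call without the first sample of that line (1.30).

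**Figure D1:**
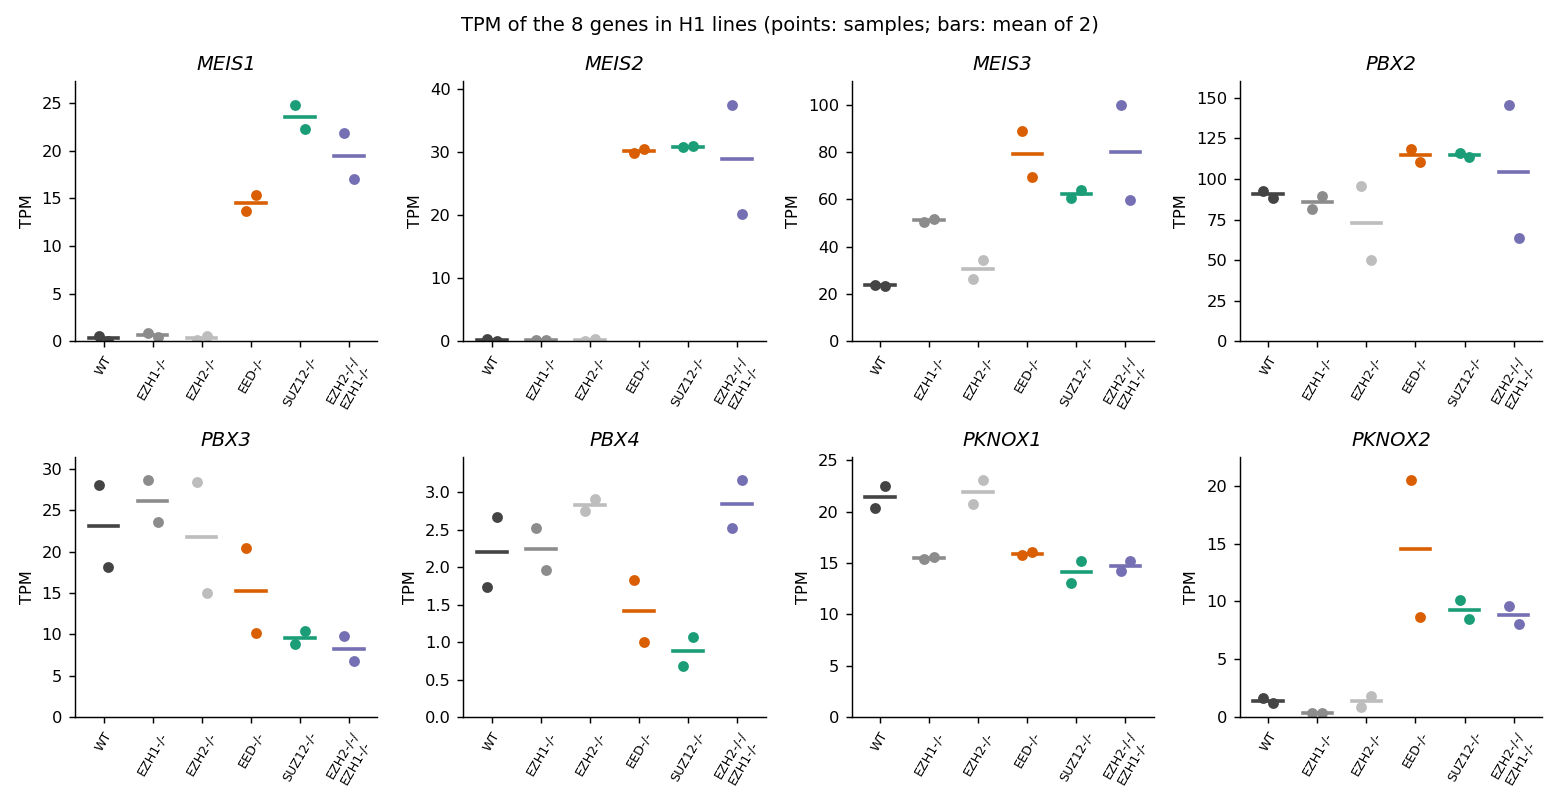
TPM of each of the 8 genes (vertical axes, linear, starting at 0 and scaled per gene) in the 6 constitutive H1 lines, with each point a sample and each bar the mean of 2. MEIS1 and MEIS2 sit below 1 TPM in WT, EZH1-/- and EZH2-/- samples and at 13.71 to 37.48 in the PRC2-null samples, while PBX2, PBX3, PBX4 and PKNOX1 overlap between the groups.

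The PKNOX genes encode relatives of the MEIS proteins that bind PBX through the same region, and PKNOX2 differed between the groups of lines where PKNOX1 overlapped. PKNOX2 (chromosome 11, 125164687 to 125433389, plus strand, protein-coding) was 1.63 and 1.17 TPM in WT, 0.32 and 0.38 in EZH1-/- and 0.88 and 1.83 in EZH2-/- cells. In the PRC2-null lines it was 20.46 and 8.67 in EED-/-, 10.13 and 8.44 in SUZ12-/- and 9.63 and 8.04 in EZH2-/-/EZH1-/- cells. All 6 PRC2-null samples were above the other 6, and the EZH1-/- samples were the lowest of the 12. The difference from WT was 2.59 (SE 0.37, adjusted p = 0.000212) in EED-/-, 2.10 (SE 0.37, adjusted p = 0.000933) in SUZ12-/- and 2.04 (SE 0.37, adjusted p = 0.00136) in EZH2-/-/EZH1-/- cells. It was -0.82 (SE 0.37, adjusted p = 0.314) in EZH1-/-. The PKNOX2 calls rested on single samples in part: without the second WT sample, the SUZ12-/- difference was 1.96 (adjusted p = 0.0121) and the EZH2-/-/EZH1-/- difference 1.90 (adjusted p = 0.0164), and without the first SUZ12-/- sample its difference was 1.98 (adjusted p = 0.0118).

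PKNOX1 (chromosome 21, 42974510 to 43033931, plus strand, protein-coding), a widely expressed partner of PBX, stayed between 13.05 and 23.05 TPM in the 12 samples. It was 20.39 and 22.51 TPM in WT, 20.72 and 23.05 in EZH2-/- and 15.41 and 15.56 in EZH1-/- cells. It was 15.79 and 16.03 in EED-/-, 13.05 and 15.23 in SUZ12-/- and 14.22 and 15.17 in EZH2-/-/EZH1-/- cells. The EZH1-/- samples thus lay with the PRC2-null samples, below WT and EZH2-/-. The differences from WT in the PRC2-null lines were -0.41 to -0.57 (SE 0.21), with adjusted p = 0.12 in EED-/-, 0.0408 in SUZ12-/- and 0.0628 in EZH2-/-/EZH1-/- cells.

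Among the PBX genes, PBX2 (chromosome 6, 32184733 to 32190202, minus strand, protein-coding) had the highest level of all 8 members in 17 of the 19 samples, all but days 16 and 20 after DOX withdrawal. It was 92.93 and 88.50 TPM in WT, 81.62 and 89.50 in EZH1-/- and 95.82 and 50.09 in EZH2-/- cells. In the PRC2-null lines it was 118.57 and 110.59 in EED-/-, 116.30 and 113.41 in SUZ12-/- and 145.80 and 63.44 in EZH2-/-/EZH1-/- cells. The groups overlapped through the second double-knockout sample, and the differences from WT were 0.33 (SE 0.36, adjusted p = 0.46), 0.34 (SE 0.36, adjusted p = 0.469) and 0.09 (SE 0.36, adjusted p = 0.868). The lowest value of each group, 50.09 in EZH2-/- and 63.44 in EZH2-/-/EZH1-/-, came from the samples with the 2 lowest median ratios of the 12, 0.834 and 0.887, where the others lay between 0.921 and 1.24. The part of this scale in the PBX2 values was not tested. 

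PBX3 (chromosome 9, 125747345 to 125967377, plus strand, protein-coding), a PBX protein with roles in hindbrain respiratory circuits and in HOX-driven leukaemia, had the most negative difference of the 8 members in the contrast of the 2 groups of lines. It was 28.02 and 18.15 TPM in WT, 28.62 and 23.53 in EZH1-/- and 28.43 and 15.03 in EZH2-/- cells. It was 20.45 and 10.14 in EED-/-, 8.84 and 10.37 in SUZ12-/- and 9.76 and 6.75 in EZH2-/-/EZH1-/- cells. A single PRC2-null sample, the first of EED-/-, lay within the range of the others, and the 5 remaining were all below it. The difference from WT was -0.61 (SE 0.39, adjusted p = 0.211) in EED-/-, -1.16 (SE 0.39, adjusted p = 0.0301) in SUZ12-/- and -1.37 (SE 0.39, adjusted p = 0.0149) in EZH2-/-/EZH1-/- cells. The mean of the 3 PRC2-null lines was below that of the other 3 by -1.07 (SE 0.22, adjusted p = 0.0014), 11.1 TPM against 23.6, which passed the p threshold but not the 3-fold limit. 

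PBX4 (chromosome 19, 19561707 to 19618693, minus strand, protein-coding), a PBX gene best known from testis, was low in every sample, at 1.74 and 2.67 TPM in WT, 2.52 and 1.96 in EZH1-/- and 2.75 and 2.91 in EZH2-/- cells. It was 1.83 and 1.00 in EED-/-, 0.68 and 1.07 in SUZ12-/- and 2.53 and 3.16 in EZH2-/-/EZH1-/- cells. SUZ12-/- had the lowest mean, with its range overlapping that of EED-/-, and the double knockout the highest. The difference between SUZ12-/- and the double knockout, -1.04 (SE 0.29, adjusted p = 0.0352), had the lowest adjusted p of any member between PRC2-null lines, above the threshold of 0.01. PBXIP1, whose product binds PBX proteins and holds them from DNA, rose in all 3 PRC2-null lines. It was 12.79 to 21.98 TPM in the 6 samples outside the PRC2-null group, 236.54 and 148.41 in EED-/-, 60.02 and 59.92 in SUZ12-/- and 85.48 and 110.09 in EZH2-/-/EZH1-/- cells. The difference of PBXIP1 from WT was 3.58 (SE 0.23, adjusted p = 1.04e-06), 1.95 (SE 0.23, adjusted p = 6.4e-05) and 2.64 (SE 0.23, adjusted p = 1.11e-05) in that order.

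Summed over the 8 genes, the transcripts came to 128 to 183 TPM in the samples outside the PRC2-null group and to 193 to 341 in the PRC2-null samples. The MEIS genes went from 23.6 to 52.5 TPM to 96.8 to 159 TPM, and the PBX members from 68.0 to 127 TPM to 73.4 to 158 TPM. MEIS transcripts were 14.7% to 28.6% of the summed TPM of the 8 in the first group and 42.8% to 50.1% in the second, and PBX transcripts 53.1% to 72.5% and 37.9% to 47.5%. Within the MEIS genes, MEIS3 made up nearly all of the TPM in the first group, with MEIS1 and MEIS2 together at 0.34% to 3.85%. In the PRC2-null samples MEIS1 and MEIS2 together made up 32.9% to 47.9%.

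**Figure D2:**
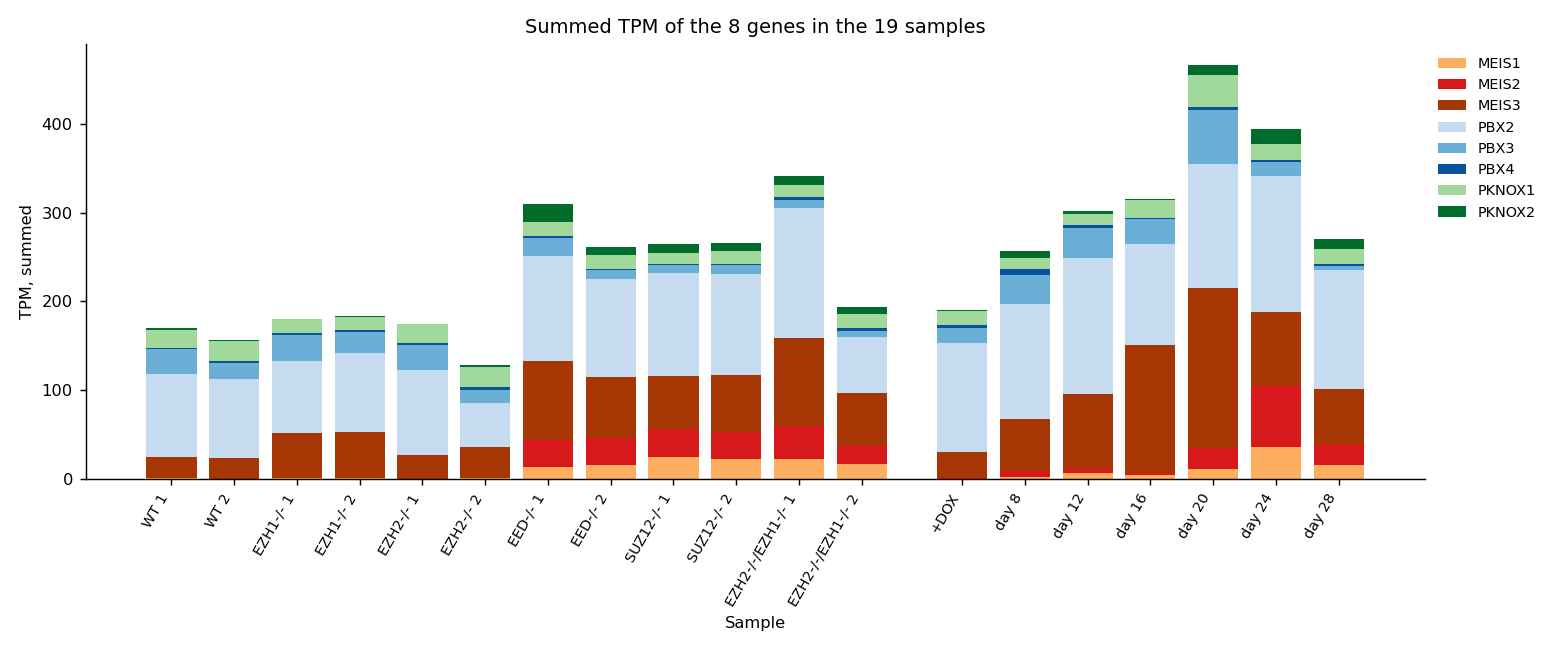
Summed TPM of the 8 genes (vertical axis, linear from 0) in each of the 19 samples, stacked by gene, with the 12 samples of the constitutive lines on the left and the 7 of H1-EED-/-/EED-OE cells on the right. The PRC2-null samples sum to 193 to 341 TPM, and the day 20 sample has the highest sum at 467.

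Counts of called members were read against the share of all 19100 tested genes called in the same comparison, with a call set at an adjusted p of at most 0.01 and a fold of at least 3. Among the lines, MEIS1 and MEIS2 had at least 1 TPM only in PRC2-null samples. Both thus passed the filter through the group in which they were high. A fall could not be called for them. Nor could it for PKNOX2, which at 1.63 and 1.17 TPM in WT was too low for a 3-fold fall on the log2(TPM + 1) scale. These counts thus describe the 8 and are no test of them. In EED-/- cells 4 of 8 members rose (MEIS1, MEIS2, MEIS3 and PKNOX2) and 0 fell, where 16.2% of all genes rose and 6.09% fell. In SUZ12-/- cells 3 of 8 rose (MEIS1, MEIS2 and PKNOX2) and 0 fell, against 14.5% and 5.21% of genes. In EZH2-/-/EZH1-/- cells the 4 genes called in EED-/- rose and 0 fell, against 11.6% and 5.66%. The median log2 difference over the 8 was 1.01, 0.85 and 0.97 in the 3 lines, beside 0.36, 0.22 and 0.19 over all genes tested. With samples rescaled by the median ratio, the median over all genes was 0.16 in EED-/-, 0.19 in SUZ12-/- and 0.16 in EZH2-/-/EZH1-/- cells.

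In EZH1-/- cells 0 of 8 members were called by limma, where 0.0576% of genes were called higher and 0.0419% lower. MEIS3 alone had an unadjusted p under 0.05, a count given without the share of all genes. In EZH2-/- cells 0 of 8 were called, where 0.0% of genes were called higher and 0.0% lower, and 0 members had an unadjusted p under 0.05. The mean of the 3 PRC2-null lines against the mean of the other 3 called 3 of 8 members, MEIS1 (3.83, SE 0.17), MEIS2 (4.64, SE 0.19) and PKNOX2 (2.53, SE 0.22), all higher, against 13.5% of genes higher and 5.09% lower. In this count and the next, MEIS1 and MEIS2 could not come out lower, because of the same filter, so both counts are descriptions. PKNOX2, at 0.32 to 1.83 TPM outside the PRC2-null group, was too low for a 3-fold fall to be called in the contrast of means. Against WT, such a fall could not be called for MEIS1, MEIS2 or PKNOX2 in EZH1-/- or EZH2-/- cells. By range alone, the 6 PRC2-null samples were all above the other 6 for 4 of 8 members, MEIS1, MEIS2, MEIS3 and PKNOX2, against 24.2% of all genes. They were all below for 0 of 8, against 13.3% of genes, and for PBX3 once the first EED-/- sample was left out or the samples were rescaled by the median ratio. PBX2 joined the higher genes once the second EZH2-/-/EZH1-/- sample was left out.

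**Figure D3:**
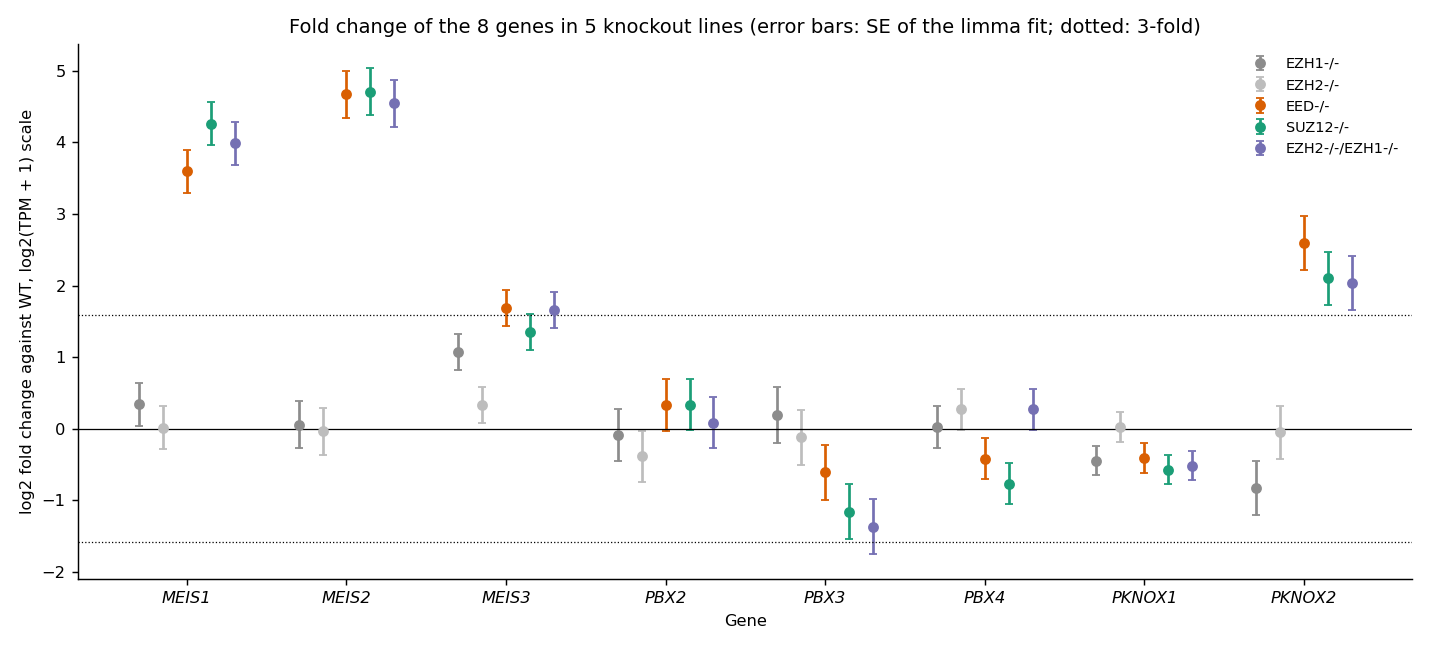
Difference of each knockout line from WT on the log2(TPM + 1) scale (vertical axis) for the 8 genes (horizontal axis), with bars giving the SE of the limma fit and dotted lines marking 3-fold. MEIS1 and MEIS2 lie between 3.60 and 4.71 in the 3 PRC2-null lines and between -0.03 and 0.34 in EZH1-/- and EZH2-/- cells, and the PBX3 points of the PRC2-null lines lie between -0.61 and -1.37.

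Between the PRC2-null lines 0 of 8 members were called by limma in any of the 3 pairs. In each pair 1 had an unadjusted p under 0.05, a count given without the share of all genes at that limit. The share of all genes called at the adjusted p and fold limits was 3.54% higher and 2.58% lower for SUZ12-/- against EED-/-, 0.0314% and 0.0576% for EZH2-/-/EZH1-/- against EED-/-, and 3.32% and 1.14% for SUZ12-/- against EZH2-/-/EZH1-/-. The interval of the MEIS1 difference between SUZ12-/- and EED-/- ran from 0.00 to 1.33 around 0.66 (adjusted p = 0.151), on the log2(TPM + 1) scale. For MEIS2 the same interval was -0.69 to 0.76, so a difference of less than that size between these lines could not be seen with 2 samples each. The PKNOX2 interval between SUZ12-/- and EED-/- was -1.32 to 0.34, and the PBX3 interval between EZH2-/-/EZH1-/- and EED-/- was -1.61 to 0.10. 

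After DOX withdrawal each day had 1 sample, so its differences from the sample with DOX have no replicate check and no test. MEIS1 was 0.13 TPM with DOX and 2.30, 5.89, 4.38, 10.59, 35.54 and 15.87 TPM at days 8, 12, 16, 20, 24 and 28. MEIS2 was 1.14 TPM with DOX and 6.45, 4.80, 2.31, 23.54, 68.52 and 23.46 TPM at the same days. PKNOX2 was 1.85 TPM with DOX and 8.40, 2.44, 1.61, 11.95, 17.23 and 11.21 TPM. All 3 were highest at day 24 and lower at day 28, and MEIS2 and PKNOX2 were higher at day 8 than at day 16. At day 28 MEIS1 was above both constitutive EED-/- samples, at 15.87 against 13.71 and 15.30 TPM, and MEIS2 below both, at 23.46 against 29.81 and 30.45. 

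MEIS3, PBX3 and PKNOX1 were highest at day 20 instead. MEIS3 was 29.05 TPM with DOX and 58.40, 85.09, 144.29, 180.48, 83.82 and 62.14 TPM from day 8 to day 28. PBX3 was 17.04 TPM with DOX and 33.52, 33.38, 28.38, 60.87, 16.28 and 4.74 TPM. PKNOX1 was 14.93 TPM with DOX and 12.01, 13.15, 20.36, 35.41, 18.54 and 17.14 TPM. PBX3 was thus above its level with DOX through day 20 and below it at day 28. PBX2 stayed between 113.82 and 153.47 TPM after withdrawal, beside 122.98 with DOX, and PBX4 between 0.92 and 6.28, beside 3.58. The EED transcript in the sample with DOX was above that of every other sample, and WT H1 had MEIS3 at 23.45 to 23.96 and PBX3 at 18.15 to 28.02 TPM.

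**Figure D4:**
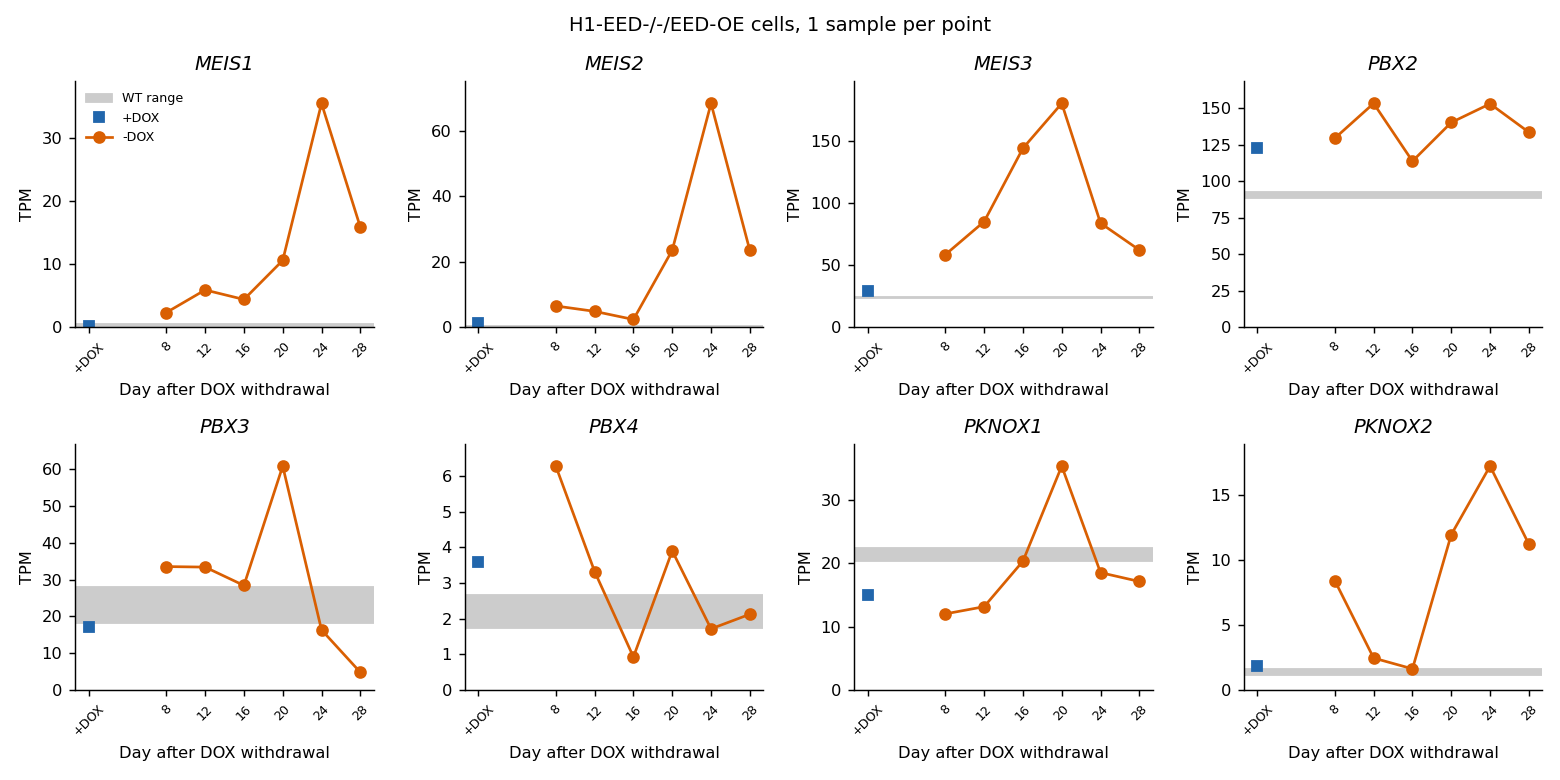
TPM of each of the 8 genes (vertical axes, linear from 0 and scaled per gene) in H1-EED-/-/EED-OE cells with DOX (square) and at 6 days after withdrawal (circles), 1 sample per point, with the range of the 2 WT samples in grey. MEIS1, MEIS2 and PKNOX2 are highest at day 24 (35.54, 68.52 and 17.23 TPM), and MEIS3, PBX3 and PKNOX1 at day 20 (180.48, 60.87 and 35.41 TPM).

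At least 3-fold on the TPM + 1 scale over the sample with DOX was reached by 2 of 8 members at day 8 (MEIS2 and PKNOX2), 1 at day 12 (MEIS1) and 2 at day 16 (MEIS1 and MEIS3). The shares of all 17245 genes with that rise were 2.93%, 3.08% and 4.13%, and those with a 3-fold fall 0.603%, 0.4% and 0.939%, with 0 members. At day 20 it was reached by 5 of 8 (MEIS1, MEIS2, MEIS3, PBX3 and PKNOX2), against 9.61% of genes, and at days 24 and 28 by 3 of 8 (MEIS1, MEIS2 and PKNOX2), against 13.9% and 18.8%. A 3-fold fall was seen for 0 members at day 20, where 2.91% of genes fell, 0 at day 24, where 5.09% fell, and 1, PBX3, at day 28, where 6.11% fell. MEIS1, MEIS2 and PKNOX2, at 0.13, 1.14 and 1.85 TPM with DOX, could not fall 3-fold on the TPM + 1 scale at any day. The counts of falls are thus a description. The fold at day 28 was 14.9 for MEIS1, 11.4 for MEIS2, 4.28 for PKNOX2 and 0.318 for PBX3. Days 20, 24 and 28 were all above days 8, 12 and 16 for 3 of 8 members, MEIS1, MEIS2 and PKNOX2, against 19.7% of genes, and all below for 0 of 8, against 15.9%. The summed TPM of the pluripotency genes was 5074 to 5773 at days 8 to 16, 2568 at day 20 and 441 and 456 at days 24 and 28. That of the smooth muscle and mesenchyme genes was 150 to 200 at days 8 to 16 and 993, 7434 and 7341 at days 20, 24 and 28. The part of these shifts in the values of the 8 genes was not tested.

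HOX genes, the DNA-binding partners of these cofactors, were low in the samples in which MEIS1 and MEIS2 were near 0. Of 39 HOX genes, 0 had a TPM of at least 1 in the WT, EZH1-/- and EZH2-/- samples and in the sample with DOX, and 35 or 36 had it in the 6 PRC2-null samples. In the contrast of the 2 groups of lines, 9 of 10 tested anterior, 9 of 10 central and 16 of 16 posterior HOX genes rose, beside 13.5% of all genes. Every tested HOX gene passed the filter on low values only through the PRC2-null samples. Any call was thus bound to be a rise and a fall could not be called, so these counts are no more than a description. The genes furthest apart in each class were HOXB2 (0.00 to 0.19 TPM outside the PRC2-null group, 7.72 to 33.03 within) and HOXB3 (0.00 to 0.14 and 5.25 to 20.68), HOXB6 (listed at 0 in all 6 and 13.40 to 42.95) and HOXB7 (0.00 to 0.25 and 15.82 to 40.88), and HOXA10 (0.00 to 0.07 and 26.63 to 59.61) and HOXD11 (0.00 to 0.10 and 21.83 to 76.07). After DOX withdrawal, 8 HOX genes had a TPM of at least 1 at day 8, 15 at day 12, 18 at day 16, 38 at day 20 and 35 at days 24 and 28. At days 8 to 16 MEIS1 was 2.30 to 5.89 TPM, and single HOX genes lay in a similar range, HOXB7 at 3.82 to 5.05, HOXB2 at 2.44 to 6.65 and HOXA7 at 1.59 to 7.30 TPM. The median HOX gene of each class was at a log2(TPM + 1) of at most 1.12 on those days. At day 20 the medians were 2.52 for anterior, 3.32 for central and 3.03 for posterior HOX genes.

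**Figure D5:**
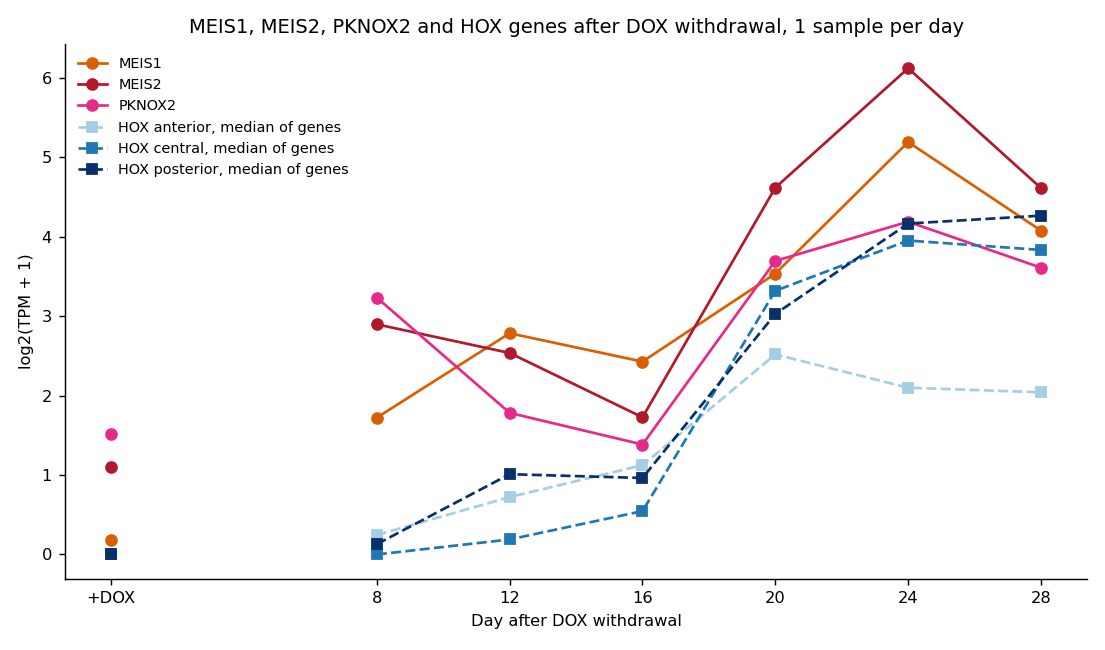
Level on the log2(TPM + 1) scale (vertical axis) of MEIS1, MEIS2 and PKNOX2 (circles) and the median of the anterior, central and posterior HOX genes (squares) in H1-EED-/-/EED-OE cells with DOX and at 6 days after withdrawal, 1 sample per day. The HOX medians stay at or below 1.12 through day 16 and lie between 2.52 and 3.32 at day 20, and MEIS1 and MEIS2 peak at day 24.

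The 9 other TALE genes tested, TGIF1, TGIF2, MKX and the 6 IRX genes, act mostly apart from HOX proteins, TGIF1 and TGIF2 as repressors in TGF-beta signalling and the IRX genes in neural and limb patterning. Of these, 2 rose in the contrast of the 2 groups of lines and 0 fell, beside 13.5% and 5.09% of all genes, with a median log2 difference of 0.81, where that of the 8 members was 0.75 and that of all genes 0.29. IRX5, IRX6 and MKX were below 1 TPM in every sample outside the PRC2-null group. They passed the filter on low values only through the PRC2-null samples and could not be called lower. IRX1, IRX3 and IRX4, with at most 1.52 TPM outside that group, were also too low for a 3-fold fall to be called. These counts are thus a description. IRX5 was 0.00 to 0.62 TPM outside the PRC2-null group and 3.73 to 13.67 within it (log2 difference 2.71, SE 0.21, adjusted p = 7.83e-07), and IRX3 was 0.51 to 1.45 and 4.25 to 9.26 (1.99, SE 0.17, adjusted p = 1.97e-06). Neither group overlapped the other for these genes. The other 3 genes without overlap were lower in the PRC2-null samples, by less than 3-fold: TGIF1 was 152.70 to 289.33 TPM outside the group and 44.62 to 130.36 within it, TGIF2 33.57 to 62.99 and 19.68 to 32.85, and IRX2 8.60 to 31.99 and 3.69 to 7.46. Against WT alone, TGIF1 was called lower in SUZ12-/- (-2.08, SE 0.17, adjusted p = 5.51e-06). After DOX withdrawal the days 8 to 16 and 20 to 28 overlapped for IRX5 (1.15 to 13.81 and 2.38 to 17.60 TPM) and IRX3 (3.87 to 14.35 and 3.42 to 37.15).

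Across the 19 samples the level of MEIS1 was most like that of TBX3 (Pearson r = 0.979 on log2(TPM + 1)), MEIS2 (0.972) and HOXC4 (0.972) among the 19099 other genes tested. The genes most like MEIS2 were EFEMP2 (0.98), CD99 (0.98) and GATA2 (0.979). The genes most like PKNOX2 were PPP1R9B (0.952), MEIS2 (0.946) and SOX9 (0.945), and those most like MEIS3 were WNT3 (0.899), FOXC1 (0.89) and SP5 (0.888). MEIS3 was thus less like the other called members, with r = 0.69 to MEIS1 and 0.66 to MEIS2, and MEIS1 and PBX3 had r = -0.48. These are descriptions over samples that share a cell line and, in the time course, a culture.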

How the data were processed

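RNA was extracted with Trizol, libraries were prepared with a TruSeq RNA kit that does not mark strand, and reads were mapped to a GRCh38/hg38 mRNA reference with Bowtie2 and RSEM by the authors, who deposited TPM per gene. The labels' processing notes name hg19 as well as GRCh38 and hg38. The TPM were compared as log2(TPM + 1), a scale that understates the change of low genes. Genes with at least 1 TPM in at least 2 of the 12 samples of the lines were kept (19100, all 8 members among them), and limma 3.58.1 in R 4.3.3 was fitted with a mean per line (6 residual degrees of freedom), trend and robust options and Benjamini-Hochberg adjustment over all genes kept. The time course used genes with at least 1 TPM in at least 2 of the 7 samples (17245). In place of the count test of the study, this test was used because the unit was TPM. A test on simulated data was run before the fits. Named from the other lists were the 2 called genes with the largest difference per list, and as most alike the 3 genes with the highest r. The members, lists and tests were chosen with earlier results of these data known. MEIS3P1, MEIS3P2 and PBX2P1 were not analysed here. The labels do not say that the 2 samples of a line came from separate cultures, so p-values measure the spread between these samples, which may be technical. Depth is unknown, so no counting interval is given.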

Additional observations from a re-analysis of the deposited data

Results flagged for a closer look

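Of 16 sets of 6 samples tested (each of the 8 genes in the PRC2-null samples and in the other 6), 3 held a sample far from the rest by Dixon's gap-to-range ratio above 0.625. Chance flags about 1 set in 20 if the 6 samples are independent draws from a single normal distribution. Each set here pooled samples of 3 lines, so that rate need not hold. PBX2 was 50.09 TPM in the second EZH2-/- sample against 81.62 to 95.82 in the other 5 samples outside the PRC2-null group. PBX3 was 20.45 TPM and PKNOX2 20.46 TPM in the first EED-/- sample, against at most 10.37 and 10.13 in the other PRC2-null samples. The first EED-/- sample also had the highest median ratio of the 12, 1.24, and the second EZH2-/- sample the lowest, 0.834, and the part of this scale in the 3 values was not tested.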

How the results depend on the processing

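Depth is unknown, each line has 2 samples and each day 1, so precision rests on few samples. Of 249 alternative fits of the 14 differences past the threshold, 242 kept direction and call, 7 lost the call and 0 turned direction. The 7 were MEIS3 in EED-/- cells with median ratio scaling (1.42) or without its first sample (1.51), MEIS3 in EZH2-/-/EZH1-/- cells with only the samples compared (1.66, adjusted p = 0.0158) or without its first sample (1.30), PKNOX2 in SUZ12-/- cells without the second WT (1.96) or first SUZ12-/- sample (1.98), and PKNOX2 in EZH2-/-/EZH1-/- cells without the second WT sample (1.90). The cause was not tested.

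Of 178 recomputed counts of members, 175 stayed within 1.5 times, some of them counts without a sample of a line not compared. At an adjusted p of 0.05 with no fold limit, 7 members were called in SUZ12-/- cells, 7 in the contrast of the 2 groups of lines and 1 (PBX4) between SUZ12-/- and EZH2-/-/EZH1-/- cells, by the construction of the looser threshold. The share of all genes at that threshold is not given here, so these counts are no result about the members. Sign changed in 18 fits of 10 differences that were never past the threshold. With median ratio scaling, MEIS2 and PKNOX2 in EZH2-/- cells changed to 0.0018 and 0.019. Leaving out 1 sample at a time gave, in EZH2-/- cells, -0.24 to 0.27 for MEIS1, -0.29 to 0.22 for MEIS2, -0.84 to 0.079 for PBX2, -0.56 to 0.32 for PBX3, -0.046 to 0.10 for PKNOX1 and -0.35 to 0.24 for PKNOX2. In EZH1-/- cells it gave -0.17 to 0.29 for MEIS2, -0.11 to 0.49 for PBX3 and -0.19 to 0.24 for PBX4, and in EZH2-/-/EZH1-/- cells -0.51 to 0.68 for PBX2. Where this left a line with 1 sample, that sample was assumed to vary like the other lines. No paired analysis was possible because the labels give clone or passage names and no replicate number that lines share.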
